A study of Homo sapiens with 12 samples.

Results

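The 58 genes described here are known early oestrogen-response genes, taken without the classical markers of oestrogen receptor activity such as GREB1, TFF1 and PGR. They were found by gene symbol among the named genes of a table of read counts, and 57 of them were among the 11803 genes that held enough reads to be tested. DHRS3, which encodes a retinal reductase, was the gene left out. It held 2 reads in abemaciclib replicate 3, 1 read in combination replicate 2 and 0 in the other 10 libraries.

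The counts come from CAMA-1 cells, a long-used line of human luminal breast cancer positive for the oestrogen receptor, with the same wild-type genotype in all 4 groups. Cells received the vehicle DMSO, abemaciclib at 100 nM, fulvestrant at 5 nM or both drugs, and no dose is repeated in the labels of the combination. The 100 nM is from the sample labels, and the methods of the study give a higher dose of abemaciclib unless otherwise noted. The study states 5 days of treatment for its RNA sequencing of cell lines under these drugs. Abemaciclib is an inhibitor of the cell cycle kinases CDK4 and CDK6, and fulvestrant binds the oestrogen receptor and brings about its degradation. Each group held 3 libraries, each from a separate culture according to the methods of the study, so the 12 libraries describe 1 line and no other. Transcripts were read from their 3′ ends, and levels are given as CPM (the counts of a gene relative to the scaled total of its library).

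The oestrogen receptor is a transcription factor that is switched on by oestradiol. It binds DNA at oestrogen response elements, most often in enhancers far from the genes it controls, and through other transcription factors, and it recruits coactivators that raise transcription within hours. The early genes of this response encode receptors and their ligands, transcriptional regulators, co-chaperones, transporters and enzymes, so in luminal breast cancer cells the response reaches well past the few transcripts that are commonly used as markers.

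The sequence just upstream of these genes was read from RefSeq on GRCh38.p14, over windows from 250 bases before to 50 bases after the annotated start, and 48 of the 58 genes were matched. KLF10, CELSR1, ADCY9, DEPTOR, FKBP4, CANT1, SCNN1A, PODXL, MAPT and SYBU had no entry. The full oestrogen response element, searched as GGTCA and TGACC with 3 bases of any kind between them, was in 20 of the 35116 windows in the table (0.057%) and in 0 of the 48. Its half-site AGGTCA, searched on both strands and contained in some of the full elements, was in 6 of the 48 windows (12.5%) and in 13.8% of all windows. Those 6 were BLVRB, TPBG, DYNLT3, MREG, MYOF and ANXA9. The GC box GGGCGG, on either strand, was in 37 of the 48 (77.1%) against 45.0% of all windows, and the E2F motifs TTTGGCGC and TTTCGCGC were in 0 of the 48, against 0.652% and 0.515% of all windows. The table also holds windows of noncoding genes, so its shares are not those of protein-coding promoters alone. A match describes letters in the window and is not a measured binding site. Of these 6 genes, DYNLT3, MREG, MYOF and ANXA9 rose under abemaciclib with no call under fulvestrant. BLVRB fell under abemaciclib and rose under fulvestrant, and TPBG fell under fulvestrant with no call under abemaciclib. No link between the half-site and a response was tested. MREG and ANXA9 are printed as examples, with the half-site in capitals. SLC26A2, SIAH2 and ELOVL2 are printed as examples from different classes of response to the drugs, with their GC boxes in capitals. No link between a GC box and a response was tested. Each printed window runs 5′ to 3′ on the strand of its gene.
MREG, chr2:216034047-216034346, minus strand: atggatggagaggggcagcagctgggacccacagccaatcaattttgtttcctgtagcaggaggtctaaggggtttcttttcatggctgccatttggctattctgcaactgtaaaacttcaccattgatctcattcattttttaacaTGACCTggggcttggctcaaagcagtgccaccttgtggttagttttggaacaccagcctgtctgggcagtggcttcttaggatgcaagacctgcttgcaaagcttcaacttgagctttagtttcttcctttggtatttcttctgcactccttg
ANXA9, chr1:150982042-150982341, plus strand: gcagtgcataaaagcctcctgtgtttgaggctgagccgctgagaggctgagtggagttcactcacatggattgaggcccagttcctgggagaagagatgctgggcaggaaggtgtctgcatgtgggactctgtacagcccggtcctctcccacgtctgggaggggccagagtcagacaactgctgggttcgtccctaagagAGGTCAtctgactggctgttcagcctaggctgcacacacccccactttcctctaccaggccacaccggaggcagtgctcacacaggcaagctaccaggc
SLC26A2, chr5:149960508-149960807, plus strand: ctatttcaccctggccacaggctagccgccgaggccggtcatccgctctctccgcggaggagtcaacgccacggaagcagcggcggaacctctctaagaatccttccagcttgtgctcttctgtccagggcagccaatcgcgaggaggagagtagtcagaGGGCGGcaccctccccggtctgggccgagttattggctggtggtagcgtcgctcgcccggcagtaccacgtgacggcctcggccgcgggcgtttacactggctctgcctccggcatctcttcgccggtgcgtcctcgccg
SIAH2, chr3:150763120-150763419, minus strand: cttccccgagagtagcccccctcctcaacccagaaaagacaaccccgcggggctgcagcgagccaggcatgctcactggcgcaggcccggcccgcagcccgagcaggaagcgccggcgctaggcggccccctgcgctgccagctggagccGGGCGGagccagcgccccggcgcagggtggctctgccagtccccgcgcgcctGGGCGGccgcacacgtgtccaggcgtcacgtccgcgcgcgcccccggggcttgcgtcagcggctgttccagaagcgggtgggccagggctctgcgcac
ELOVL2, chr6:11044256-11044555, minus strand: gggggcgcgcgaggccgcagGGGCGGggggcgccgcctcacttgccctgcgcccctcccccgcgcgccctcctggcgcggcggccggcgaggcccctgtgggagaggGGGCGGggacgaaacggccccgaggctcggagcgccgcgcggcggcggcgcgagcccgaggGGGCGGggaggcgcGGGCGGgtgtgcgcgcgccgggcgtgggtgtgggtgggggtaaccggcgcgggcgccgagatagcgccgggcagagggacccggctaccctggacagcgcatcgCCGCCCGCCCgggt

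Total counts ran from 3299119 to 5164667 per library, and each of the 12 libraries correlated best, across all genes tested, with a library of its own group. Over the 57 genes alone, 10 of the 12 did so. The lowest correlation within a group was 0.9703, between fulvestrant replicates 2 and 3. Transcripts of the mitochondrial genome took 12 to 12.5% of reads in DMSO and 15.6 to 20.6% in the treated libraries. With those transcripts left out, a setting chosen after the data were seen, the 57 genes had the same number of calls in each direction in every comparison between groups. Of 8 luminal epithelial markers all 8 were detected, while 9 of 10 markers of other cell types held at most 11 reads in any library and the other, COL1A1, held up to 102 reads. COL1A1 was at 16.1 CPM in DMSO, 22.3 under abemaciclib, 22.8 under fulvestrant and 19.3 under the combination, and its part in the results was not tested. ESR1, which encodes the receptor itself, stood at 93.3 ± 5.42 CPM in DMSO, 103 ± 3.43 under abemaciclib, 95.3 ± 10.3 under fulvestrant and 81.5 ± 4.52 under the combination (SD, n = 3). The smallest two-sided p of an exact permutation test is 0.1 with 3 libraries against 3, so every test rests on a model fitted across all genes: edgeR's quasi-likelihood test with Benjamini-Hochberg adjustment over the 11803 genes and a threshold of 0.05.

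Under abemaciclib alone, 33 of the 57 genes rose and 9 fell, where 20.5% of all genes tested rose and 20.7% fell. The median log2 fold change of the 57 was 0.54. Under fulvestrant alone 17 rose and 19 fell, where 25.3% and 25.7% of all genes did, and the median was -0.19. Adding fulvestrant to abemaciclib lowered 34 genes and raised 6, against 17.7% and 15.9% of all genes, with a median of -0.60. Adding abemaciclib to fulvestrant raised 0 genes and lowered 1, against 0.297% and 1.63% of all genes, with a median of -0.05. Between the combination and DMSO 20 genes were higher and 23 lower, against 27.7% and 27.5% of all genes, with a median of -0.18. The median over all genes tested was between 5e-04 and 0.011 in these comparisons. In the heat map of single libraries, the 3 abemaciclib columns form the warm block and the fulvestrant and combination columns resemble each other in most genes.

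**Figure D1:**
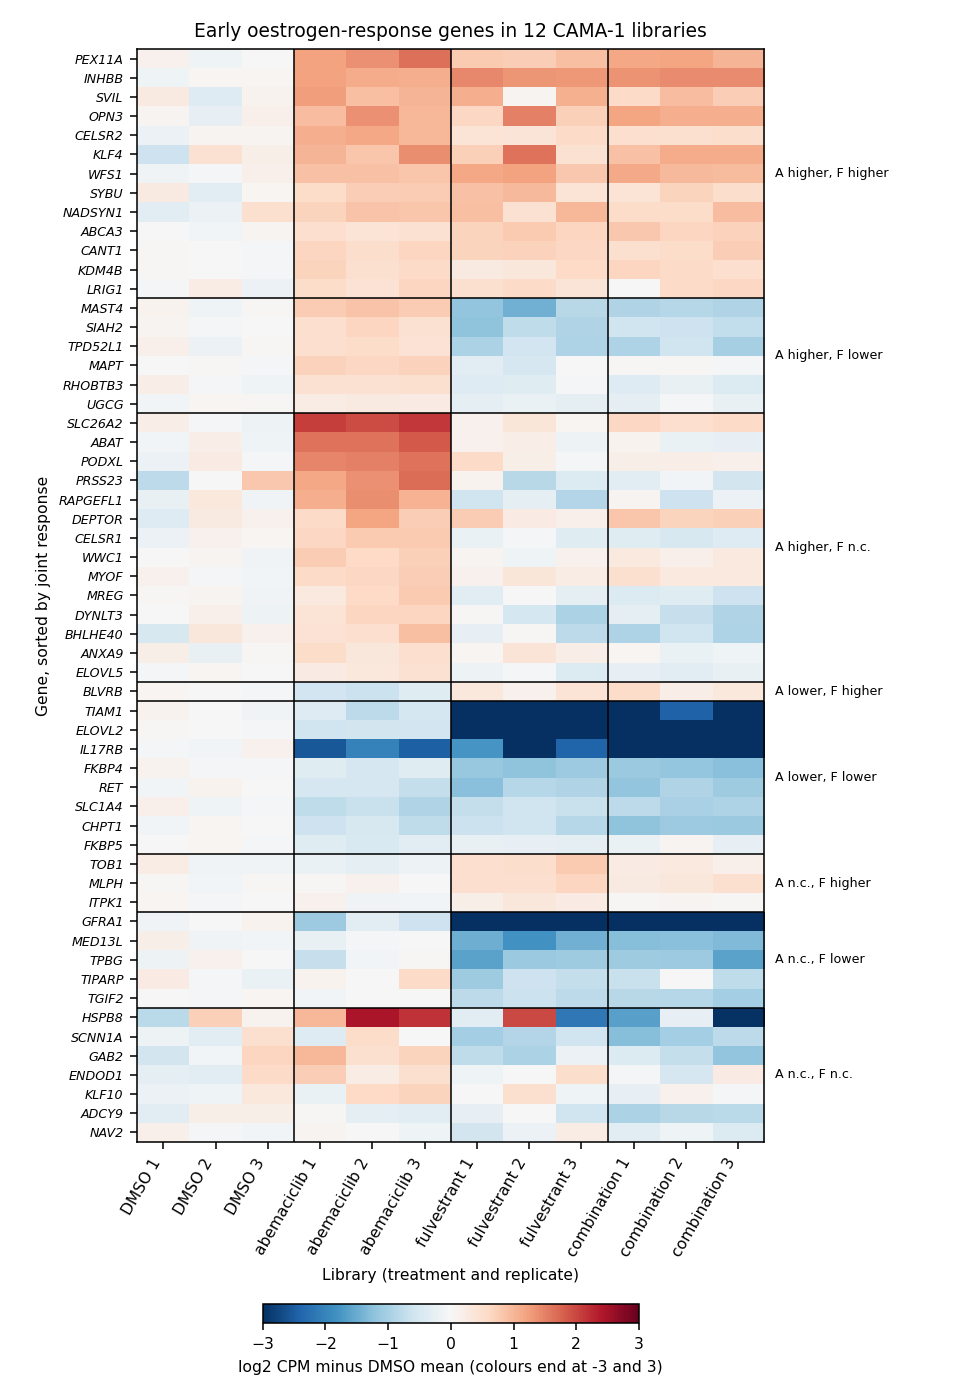
Levels of the 57 tested genes (vertical axis, sorted by joint response) in each of the 12 libraries (horizontal axis), as log2 CPM minus the DMSO mean of the gene, with colours ending at -3 and 3; A is abemaciclib against DMSO, F is fulvestrant against DMSO and n.c. is not called. The 33 genes of the upper 3 blocks are higher in abemaciclib than in DMSO, and only the first block of 13 is also higher in fulvestrant.

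The genes were sorted by their joint response to each drug alone. Both of these comparisons use the same DMSO libraries, so only the counts in each class are given. In all, 13 genes rose under both drugs (22.8% of the 57, against 14.4% of all genes tested), 8 fell under both (14% against 15.6%), 6 rose under abemaciclib and fell under fulvestrant (10.5% against 0.754%) and 1 did the opposite (1.75% against 0.364%). A further 14 rose under abemaciclib with no call under fulvestrant (24.6% against 5.3%), 3 rose and 5 fell under fulvestrant with no call under abemaciclib (5.26% against 10.5%, and 8.77% against 9.37%), and 7 passed in neither comparison (12.3% against 38.9%). In 0 genes was there a fall under abemaciclib with no call under fulvestrant, against 4.8% of all genes. The scatter of both responses shows these classes as sectors.

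**Figure D2:**
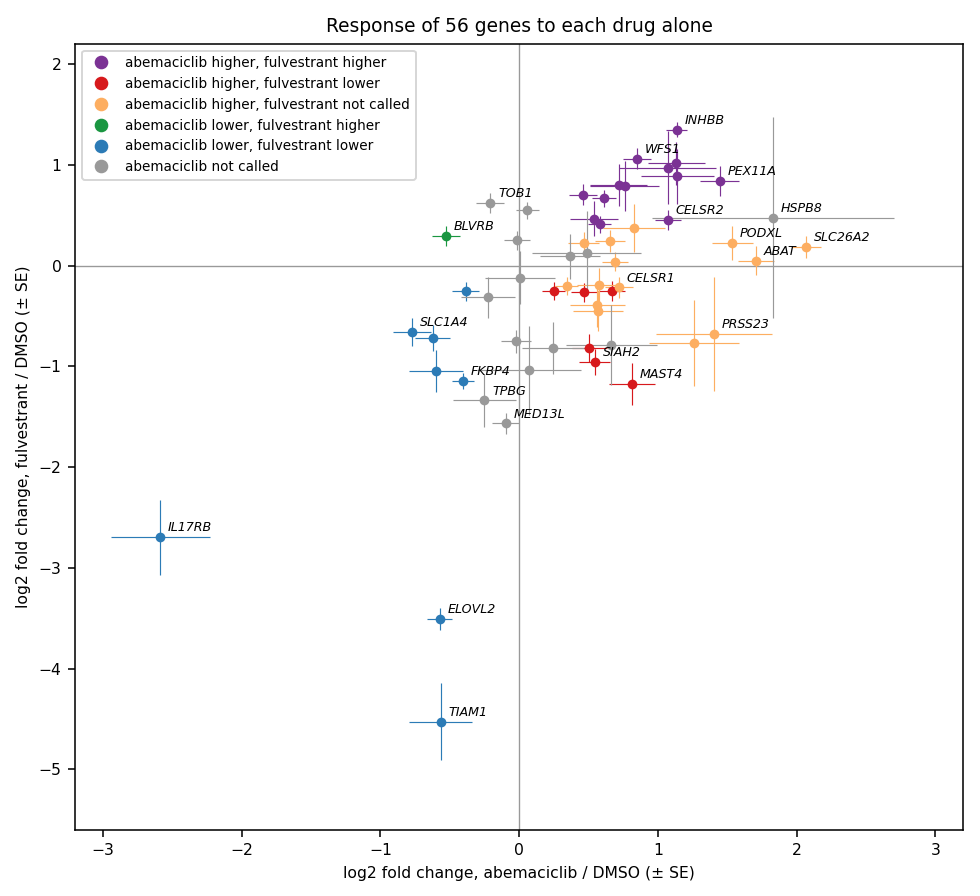
Log2 fold change under abemaciclib against DMSO (horizontal axis) and under fulvestrant against DMSO (vertical axis) for 56 genes, each point with bars of 1 SE and coloured by class; GFRA1 is left out because its fulvestrant libraries held 0 reads. SLC26A2, ABAT and PODXL lie far to the right near 0 on the vertical axis, INHBB and PEX11A lie up and to the right, and TIAM1, ELOVL2 and IL17RB lie at the bottom left.

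Among the 57 genes the largest called rises under abemaciclib, in SLC26A2, ABAT and PODXL, belonged to the class with no call under fulvestrant. SLC26A2 encodes a sulfate transporter of the plasma membrane, and its levels were 48.1, 40.1 and 37.8 CPM in DMSO, 177, 164 and 184 under abemaciclib, 45.5, 53.9 and 43.3 under fulvestrant and 64.5, 59.3 and 62.7 under the combination. The abemaciclib libraries stood apart from all others, and the combination libraries lay just above those of DMSO and fulvestrant. The log2 fold change under abemaciclib was 2.07 ± 0.10 (SE; adjusted p 4.72e-15), and under fulvestrant it was 0.19 ± 0.11 (SE; adjusted p 0.171). Adding fulvestrant to abemaciclib lowered the gene by a log2 value of -1.49 ± 0.10 (SE; adjusted p 1.77e-12), and adding abemaciclib to fulvestrant gave 0.39 ± 0.11 (SE; adjusted p 0.0553). The interaction, which is the log2 change by abemaciclib with fulvestrant minus that without it, was -1.68 ± 0.15 (SE; adjusted p 6.31e-09).

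ABAT, the transaminase that breaks down the neurotransmitter GABA, measured 23.4, 28.7 and 22.7 CPM in DMSO, 78.03, 78.4 and 90.5 under abemaciclib, 27.2, 28.8 and 22.3 under fulvestrant and 26.7, 21.5 and 20.8 under the combination. Here the combination libraries overlapped those of DMSO and fulvestrant, and only the abemaciclib libraries were high. The rise under abemaciclib was 1.71 ± 0.13 (SE; adjusted p 2.66e-11), and the combination lay -1.84 ± 0.13 (SE; adjusted p 7.37e-12) from abemaciclib on the log2 scale. PODXL, a sialomucin of the apical membrane, measured 14.5, 19.6 and 15.7 CPM in DMSO, 46.4, 48.1 and 52.1 under abemaciclib, 24.7, 18.6 and 15.7 under fulvestrant and 18.5, 19.02 and 18.3 under the combination. Its pattern over the libraries was the same, with a log2 rise of 1.54 ± 0.15 (SE; adjusted p 3.25e-09) under abemaciclib and a difference of -1.39 ± 0.15 (SE; adjusted p 1.91e-08) when fulvestrant was added. DEPTOR, an inhibitor of the mTOR kinase, measured 5.64, 9.12 and 8.27 CPM in DMSO, 11.4, 17.7 and 12.9 under abemaciclib, 13.1, 9.03 and 8.43 under fulvestrant and 13.7, 12.2 and 12.6 under the combination. Its groups lay closer together and the fulvestrant libraries overlapped every other group. The log2 change of DEPTOR under abemaciclib was 0.83 ± 0.22 (SE; adjusted p 0.00414), which fell short of the threshold without abemaciclib replicate 2, at 0.62 (adjusted p 0.0523).

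The other genes of this class had smaller rises or lower levels. CELSR1, an atypical cadherin of planar cell polarity, rose by 0.72 ± 0.10 (SE; adjusted p 1.49e-06) under abemaciclib, and in the combination it was below abemaciclib by a log2 value of -1.15 ± 0.10 (SE; adjusted p 8.25e-10) and below DMSO by one of -0.43 ± 0.10 (SE; adjusted p 0.00113). WWC1, a scaffold of the Hippo pathway, MYOF, which acts in membrane repair, and ELOVL5, an elongase of polyunsaturated fatty acids, had log2 fold changes of 0.69, 0.66 and 0.34 under abemaciclib. MREG and ANXA9, whose windows are printed above, rose by 0.57 and 0.46 under abemaciclib, and BHLHE40, a transcriptional repressor of the circadian clock, by 0.56. The call for BHLHE40 was lost with DESeq2 (adjusted p 0.0646), without DMSO replicate 1 (0.39) and without abemaciclib replicate 3 (0.41). DYNLT3, a dynein light chain, rose by 0.57, a call lost without DMSO replicate 3 or abemaciclib replicate 2 or 3, at 0.50 to 0.53. RAPGEFL1, related to exchange factors of the GTPase Rap, rose by 1.26 ± 0.32 (SE; adjusted p 0.00259) from a mean of 2.53 CPM. PRSS23, a secreted serine protease, held 22 reads over the DMSO libraries and 58 over the abemaciclib libraries, a ratio of 2.63 with a 95% counting interval of 1.59 to 4.52, which covers counting error only. Only its abemaciclib group held at least 10 reads in each library. PRSS23 thus passed the count filter through the group where it was high, and its place among the rises depends on that. Adding fulvestrant to abemaciclib lowered 13 of the 14 genes of this class, with DEPTOR the exception. That comparison reuses the abemaciclib libraries by which the class was chosen, so a fall is favoured by the choice.

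A smaller class of 6 genes rose under abemaciclib and fell under fulvestrant. MAST4, a serine/threonine kinase, measured 13.9, 11.8 and 13.4 CPM in DMSO, 22.4, 23.8 and 22.2 under abemaciclib, 5.44, 4.51 and 7.07 under fulvestrant and 6.74, 7.03 and 6.796 under the combination. Neither the abemaciclib nor the fulvestrant libraries overlapped those of DMSO, and the combination libraries sat with fulvestrant. The log2 changes were 0.81 ± 0.17 (SE; adjusted p 0.000279) under abemaciclib and -1.17 ± 0.21 (SE; adjusted p 3.14e-05) under fulvestrant, and abemaciclib was above fulvestrant by 1.99 ± 0.19 (SE; adjusted p 7.68e-09). SIAH2, a ubiquitin ligase, measured 47.5, 42.9 and 44.4 CPM in DMSO, 64.03, 70.4 and 61.7 under abemaciclib, 19.3, 26.5 and 23.7 under fulvestrant and 29.6, 29.2 and 26.6 under the combination. The groups had the same order, with the combination libraries at or above the highest fulvestrant library. Its log2 changes were 0.54 ± 0.11 (SE; adjusted p 0.000326) and -0.96 ± 0.13 (SE; adjusted p 4.54e-07).

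TPD52L1, a protein of vesicle traffic, measured 45.4, 35.9 and 41.5 CPM in DMSO, 58.2, 59.6 and 55.3 under abemaciclib, 21.00, 27.4 and 21.2 under fulvestrant and 21.4, 26.9 and 20.2 under the combination. Abemaciclib libraries were above and fulvestrant libraries below all DMSO libraries. MAPT, the microtubule-associated protein tau, measured 102, 102 and 97.98 CPM in DMSO, 162, 155 and 162 under abemaciclib, 80.1, 70.5 and 102 under fulvestrant and 102, 103 and 98.4 under the combination. Fulvestrant replicate 3 lay within the DMSO range for MAPT, and the combination libraries lay at the DMSO level. The log2 change of MAPT under fulvestrant was -0.25 ± 0.10 (SE; adjusted p 0.0372), and it was lost in 11 of 20 alternatives, among them DESeq2 (adjusted p 0.0669) and leaving out DMSO replicate 1 (-0.24), 2 (-0.24) or 3 (-0.26), fulvestrant replicate 1 (-0.21) or 2 (-0.14), or combination replicate 1, 2 or 3 (-0.24 each). RHOBTB3 and UGCG, which makes glucosylceramide, had fulvestrant changes of -0.27 and -0.25. The call for RHOBTB3 was lost without DMSO replicate 1 (-0.16) or fulvestrant replicate 1 (-0.20) or 2 (-0.22), and that for UGCG without DMSO replicate 2 (-0.22) or 3 (-0.23) or fulvestrant replicate 1 (-0.23). For UGCG the rise of 0.25 under abemaciclib was lost without DMSO replicate 1 (0.21), without abemaciclib replicate 2 (0.24) and with libraries scaled by total counts alone (0.19). In the combination all 6 genes were below abemaciclib, and 4 were below DMSO. Both counts reuse libraries by which the class was chosen.

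**Figure D3:**
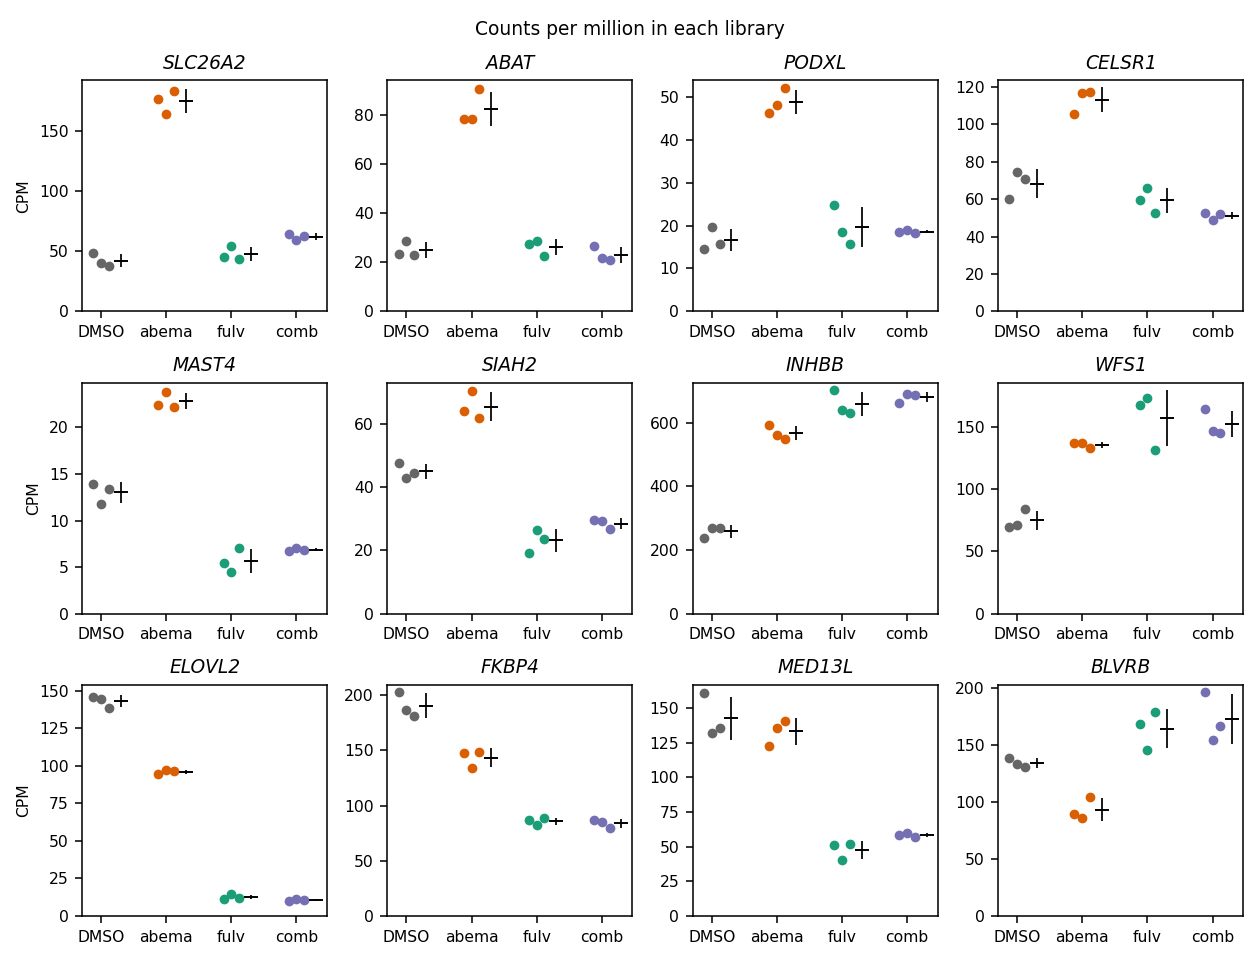
CPM of 12 genes (vertical axes, each starting at 0) in DMSO, abemaciclib (abema), fulvestrant (fulv) and the combination (comb); each coloured point is 1 of 3 libraries and each black mark is the group mean with a bar of 1 SD. SLC26A2, ABAT, PODXL and CELSR1 are high in abemaciclib alone, INHBB and WFS1 are high in all 3 treated groups, and ELOVL2 and FKBP4 step down from DMSO to abemaciclib to fulvestrant.

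Genes that rose under each drug alone formed a class of 13. INHBB, the beta B subunit of the hormones inhibin and activin, was the most abundant, at 236, 270.2 and 268 CPM in DMSO, 592, 562 and 549 under abemaciclib, 703, 641 and 631 under fulvestrant and 662, 689.6 and 688 under the combination. The 9 treated libraries were all above the 3 DMSO libraries. INHBB rose by 1.13 ± 0.08 (SE; adjusted p 2.16e-12) under abemaciclib and by 1.35 ± 0.08 (SE; adjusted p 2.49e-14) under fulvestrant, and the combination was above abemaciclib by 0.26 ± 0.07 (SE; adjusted p 0.00711). The difference between the combination and fulvestrant was 0.05 ± 0.07 (SE; adjusted p 0.869). PEX11A, which acts in the division of peroxisomes, measured 18.4, 15.2 and 16.9 CPM in DMSO, 39.2, 44.1 and 54.1 under abemaciclib, 29.4, 28.5 and 31.7 under fulvestrant and 38.3, 38.9 and 34.6 under the combination. Every treated library again exceeded every DMSO library, and abemaciclib held the highest values. The log2 changes were 1.45 ± 0.14 (SE; adjusted p 2.97e-09) under abemaciclib and 0.84 ± 0.15 (SE; adjusted p 2.85e-05) under fulvestrant, and abemaciclib was above fulvestrant by 0.61 ± 0.13 (SE; adjusted p 0.000764).

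SVIL, an actin-binding protein, measured 6.53, 3.99 and 5.79 CPM in DMSO, 13.4, 10.4 and 11.4 under abemaciclib, 11.9, 5.64 and 11.6 under fulvestrant and 8.18, 10.5 and 9.13 under the combination. Fulvestrant replicate 2 lay within the DMSO range, and without DMSO replicate 2 or fulvestrant replicate 1 the fulvestrant call of 0.89 ± 0.27 (SE; adjusted p 0.00785) was lost, at 0.69 and 0.74. OPN3, a non-visual opsin, measured 13.1, 10.3 and 13.6 CPM in DMSO, 23.6, 32.2 and 24.8 under abemaciclib, 19.03, 35.8 and 20.3 under fulvestrant and 28.1, 26.5 and 26.6 under the combination. Its DMSO libraries were the 3 lowest, with rises of 1.13 ± 0.21 (SE; adjusted p 0.000125) under abemaciclib and 1.01 ± 0.21 (SE; adjusted p 0.000344) under fulvestrant. WFS1, a membrane protein of the endoplasmic reticulum, rose by 0.85 ± 0.10 (SE; adjusted p 1.08e-07) and 1.06 ± 0.10 (SE; adjusted p 9.19e-10), and CANT1, a nucleotidase of the Golgi apparatus, by 0.61 and 0.67. KDM4B, a histone demethylase, rose by 0.58 and 0.41, ABCA3, a lipid transporter, by 0.46 and 0.70, and SYBU, which links cargo to kinesin, by 0.72 and 0.80. Without DMSO replicate 2 the abemaciclib call for SYBU was lost, at 0.55. NADSYN1, which makes NAD, had values of 0.76 and 0.79. Without DMSO replicate 2 its abemaciclib call was lost at 0.63 and its fulvestrant call at 0.66, and without DMSO replicate 1 (0.63) or abemaciclib replicate 2 (0.72) the abemaciclib call was lost alone.

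LRIG1, a negative regulator of growth factor receptors, had values of 0.54 and 0.47, of which the first was lost without DMSO replicate 3 (0.45) or abemaciclib replicate 3 (0.49). The second was lost in 6 of 20 alternatives: DESeq2 (0.47), total counts alone (0.41), and without DMSO replicate 1 (0.44) or 3 (0.38) or fulvestrant replicate 1 (0.48) or 2 (0.42). The last 500 exonic bases of LRIG1 overlap SLC25A26 on the other strand, which held 1166 reads over all libraries, and reads of the pair cannot be told apart if counting ignored the strand. All 13 genes of this class were also higher in the combination than in DMSO, where the calls for LRIG1, NADSYN1, SYBU, SVIL and KLF4 were lost in 7, 4, 3, 2 and 1 of 20 alternatives. Their median log2 difference between the combination and fulvestrant was 0.02, and that between the combination and abemaciclib was -0.04. The class was chosen with the libraries of DMSO and of each drug alone, and these comparisons with the combination reuse them.

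BLVRB, a reductase of biliverdin and flavins, was the 1 gene that fell under abemaciclib and rose under fulvestrant, with 139, 133 and 131 CPM in DMSO, 89.6, 85.6 and 105 under abemaciclib, 168, 146 and 179 under fulvestrant and 197, 154 and 167 under the combination. The abemaciclib libraries were the lowest of the 12 and did not overlap any other group. Its log2 changes were -0.53 ± 0.10 (SE; adjusted p 0.000119) and 0.30 ± 0.10 (SE; adjusted p 0.0127), and the combination exceeded abemaciclib by 0.89 ± 0.10 (SE; adjusted p 5e-08).

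Of the 8 genes that fell under both drugs, several fell far more under fulvestrant. ELOVL2, an elongase of polyunsaturated fatty acids, measured 146, 145 and 138 CPM in DMSO, 94.4, 97.1 and 96.5 under abemaciclib, 11.6, 14.4 and 11.9 under fulvestrant and 10.1, 11.4 and 10.9 under the combination. The abemaciclib libraries lay below all DMSO libraries and far above the 6 libraries with fulvestrant, among which the combination was the lower. The log2 changes were -0.57 ± 0.09 (SE; adjusted p 6.04e-06) under abemaciclib and -3.51 ± 0.11 (SE; adjusted p 2.53e-19) under fulvestrant, and the combination differed from fulvestrant by -0.21 ± 0.15 (SE; adjusted p 0.681). TIAM1, which activates the GTPase Rac, measured 21.4, 19.95 and 18.4 CPM in DMSO, 15.2, 11.3 and 13.6 under abemaciclib, 0.247, 0.846 and 1.37 under fulvestrant and 0.481, 3.31 and 1.55 under the combination. Over the 3 fulvestrant libraries there were 10 reads against 266 in DMSO, 23.7-fold lower with a 95% counting interval of 12.7 to 49.9. The difference of TIAM1 between abemaciclib and DMSO was -0.57 ± 0.23 (SE; adjusted p 0.0484) and was lost in 9 of 20 alternatives, among them DESeq2 and the removal of any 1 DMSO or abemaciclib library, over which it ran from -0.67 to -0.45, and the removal of combination replicate 3 (-0.56).

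IL17RB, a cytokine receptor, measured 10.1, 9.69 and 11.4 CPM in DMSO, 1.401, 2.21 and 1.52 under abemaciclib, 2.72, 0.282 and 1.595 under fulvestrant and 0.241, 0.414 and 0.583 under the combination. All treated libraries were below the DMSO libraries, and the combination libraries held 1 to 3 reads each. Only the DMSO group held at least 10 reads in each library, so IL17RB passed the count filter through the group where it was high. The change under abemaciclib was -2.59 ± 0.36 (SE; adjusted p 1.42e-06). Reads in fulvestrant were 6.55-fold lower than in DMSO (95% counting interval 4.04 to 11.2) and in the combination 24.5-fold lower (11 to 67.9). FKBP4, a co-chaperone of steroid hormone receptors, measured 203, 187 and 181 CPM in DMSO, 148, 134 and 149 under abemaciclib, 86.7, 82.1 and 88.7 under fulvestrant and 87.1, 85.4 and 79.6 under the combination. The abemaciclib libraries lay between those of DMSO and fulvestrant with no overlap. Its log2 changes were -0.40 ± 0.08 (SE; adjusted p 0.000207) and -1.15 ± 0.08 (SE; adjusted p 5.78e-12). SLC1A4, a neutral amino acid transporter, fell by 0.77 and 0.66 on the log2 scale, and CHPT1, which makes phosphatidylcholine, by 0.62 and 0.72. In the combination CHPT1 was below DMSO by -1.16 ± 0.13 (SE; adjusted p 3.29e-08).

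Genes called under fulvestrant alone were fewer. TOB1, an antiproliferative regulator of mRNA decay, measured 96.8, 77.2 and 77.5 CPM in DMSO, 72.4, 68.4 and 75.6 under abemaciclib, 119, 121 and 144 under fulvestrant and 99.1, 103 and 92.6 under the combination. Fulvestrant libraries were highest, and the combination libraries lay below them and around DMSO replicate 1. TOB1 rose by 0.62 ± 0.10 (SE; adjusted p 7.87e-06) under fulvestrant and was the 1 gene called between the combination and fulvestrant, at -0.38 ± 0.10 (SE; adjusted p 0.0353). That call was lost in 10 of 20 alternatives. Without fulvestrant replicate 3 it was -0.29, without combination replicate 1, 2 or 3 it was -0.39, -0.42 or -0.35, and without abemaciclib replicate 1, 2 or 3, which enter only through the shared spread, it was -0.38 each time. MLPH, an adaptor of melanosome transport, measured 107, 99.6 and 108 CPM in DMSO, 107, 115 and 106 under abemaciclib, 148, 149 and 163 under fulvestrant and 127, 133 and 147 under the combination. The abemaciclib and DMSO libraries overlapped, and the fulvestrant rise was 0.55 ± 0.08 (SE; adjusted p 4.17e-06). ITPK1, an inositol phosphate kinase, measured 73.01, 67.5 and 70.9 CPM in DMSO, 77.2, 64.9 and 66.2 under abemaciclib, 79.3, 88.8 and 83.2 under fulvestrant and 71.7, 74.02 and 72.6 under the combination, and its fulvestrant change of 0.25 ± 0.09 (SE; adjusted p 0.0282) was lost in 5 of 20 alternatives, DMSO replicate 2 (0.22) or fulvestrant replicate 2 (0.21) left out among them.

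Among the 5 genes that fell under fulvestrant with no call under abemaciclib, MED13L, a subunit of the Mediator kinase module, was the most abundant, at 161, 132 and 135 CPM in DMSO, 123, 136 and 141 under abemaciclib, 50.9, 40.3 and 52.2 under fulvestrant and 58.5, 59.5 and 56.9 under the combination. DMSO and abemaciclib overlapped, and all libraries with fulvestrant lay below them. The log2 fall was -1.57 ± 0.10 (SE; adjusted p 8.36e-13) under fulvestrant, and the difference under abemaciclib was -0.10 ± 0.10 (SE; adjusted p 0.439), with a 95% interval of -0.29 to 0.10. TGIF2, a homeobox repressor, measured 48.97, 47.5 and 51.3 CPM in DMSO, 46.2, 49.4 and 49.8 under abemaciclib, 28.4, 31.3 and 28.3 under fulvestrant and 27.4, 26.9 and 23.9 under the combination. DMSO and abemaciclib again overlapped, with -0.75 ± 0.12 (SE; adjusted p 3.97e-06) under fulvestrant and a 95% interval of -0.24 to 0.20 for abemaciclib against DMSO. TPBG, a membrane glycoprotein, measured 10.4, 12.7 and 11.6 CPM in DMSO, 7.003, 10.8 and 11.9 under abemaciclib, 3.46, 5.08 and 5.24 under fulvestrant and 5.29, 5.17 and 3.495 under the combination. TIPARP, an ADP-ribosyltransferase, measured 13.7, 11.02 and 9.92 CPM in DMSO, 12.4, 11.3 and 17.2 under abemaciclib, 5.19, 7.33 and 6.84 under fulvestrant and 6.98, 11.6 and 6.602 under the combination. In both genes the fulvestrant libraries were below all DMSO libraries, by -1.34 ± 0.26 (SE; adjusted p 0.000109) and -0.82 ± 0.26 (SE; adjusted p 0.00884). The call for TIPARP was lost without fulvestrant replicate 1, at -0.68.

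RET, a receptor tyrosine kinase, and GFRA1, the co-receptor that presents its ligand, are described as a pair. GFRA1 measured 5.94, 6.46 and 7.03 CPM in DMSO, 2.801, 5.08 and 4.04 under abemaciclib, 0, 0 and 0 under fulvestrant and 0.241, 0.414 and 0.388 under the combination. Its abemaciclib libraries lay below all DMSO libraries. The log2 change of GFRA1 under abemaciclib was -0.72 ± 0.31 (SE; adjusted p 0.0631), short of the threshold, with a 95% interval of -1.35 to -0.09. With 0 reads in all 3 fulvestrant libraries, the level under fulvestrant was at least 8.55-fold lower than in DMSO and at least 5.25-fold lower than under abemaciclib, against a floor of 3 counts per library (0.757 CPM on average). The combination held 5 reads in all, 18.5-fold below DMSO with a 95% counting interval of 7.63 to 58.3. RET measured 12.8, 14.6 and 13.4 CPM in DMSO, 9.404, 9.49 and 8.09 under abemaciclib, 5.44, 7.33 and 7.07 under fulvestrant and 5.77, 7.03 and 6.21 under the combination. All treated libraries of RET lay below those of DMSO. RET fell by -0.60 ± 0.20 (SE; adjusted p 0.0159) under abemaciclib and -1.05 ± 0.21 (SE; adjusted p 0.000145) under fulvestrant. The abemaciclib call for RET was lost with DESeq2 (adjusted p 0.057) and without DMSO replicate 2 (-0.54) or abemaciclib replicate 3 (-0.53).

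The 4 pairs of paralogues are set side by side. CELSR1 and CELSR2, both atypical cadherins, rose under abemaciclib by 0.72 and 1.07, and under fulvestrant CELSR2 rose by 0.45 ± 0.10 (SE; adjusted p 0.000345) while CELSR1 was not called, at -0.22 ± 0.11 (SE; adjusted p 0.0861). ELOVL5 was not called under fulvestrant, at -0.20 ± 0.09 (SE; adjusted p 0.0529), whereas its paralogue ELOVL2 fell by 3.51 on the log2 scale. FKBP5, like FKBP4 a co-chaperone of steroid receptors, measured 94.7, 98.1 and 89.9 CPM in DMSO, 73.03, 68.2 and 75.3 under abemaciclib, 81.04, 78.7 and 77.03 under fulvestrant and 82.04, 100.3 and 79.2 under the combination. Its fulvestrant change of -0.26 ± 0.10 (SE; adjusted p 0.0285) was lost in 7 of 20 alternatives, over which it ran from -0.27 to -0.22, and these held DESeq2, a fit with no filter on low counts, and the removal of DMSO replicate 1 or 2 or fulvestrant replicate 1, 2 or 3. KLF4, a zinc finger transcription factor, had changes of 1.07 ± 0.35 (SE; adjusted p 0.016) and 0.97 ± 0.36 (SE; adjusted p 0.0268) from a mean of 2.66 CPM, and without fulvestrant replicate 2 the second was 0.53. The call for KLF4 was also lost without DMSO replicate 1, at 0.85 under abemaciclib and 0.75 under fulvestrant, without abemaciclib replicate 3 for the first (0.91) and without DMSO replicate 3 for the second (1.01). Its paralogue KLF10 measured 16.3, 16.9 and 23.2 CPM in DMSO, 16.01, 28.5 and 29.6 under abemaciclib, 18.3, 25.9 and 16.9 under fulvestrant and 15.6, 20.3 and 18.1 under the combination. The groups of KLF10 overlapped, and its change under abemaciclib was 0.37 ± 0.22 (SE; adjusted p 0.186), with a 95% interval of -0.09 to 0.82. The difference between paralogues was not tested.

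The 7 genes that passed against DMSO under neither drug were KLF10, HSPB8, SCNN1A, GAB2, ENDOD1, ADCY9 and NAV2. HSPB8, a small heat shock protein, measured 4.16, 12.7 and 8.27 CPM in DMSO, 15.6, 43.5 and 35.6 under abemaciclib, 5.93, 31.6 and 1.37 under fulvestrant and 2.17, 6.41 and 0.583 under the combination. All 4 groups overlapped at least 1 other, with 24, 112 and 6 reads in the fulvestrant libraries. Its log2 change under abemaciclib was 1.83 ± 0.87 (SE; adjusted p 0.131), with a 95% interval of -0.17 to 3.83. Against abemaciclib the combination held 10.1-fold fewer reads, with a 95% counting interval of 7.4 to 14.2 that leaves out the spread between libraries. With that spread the log2 difference was -3.35 ± 1.04 (SE; adjusted p 0.0376), with a 95% interval of -5.74 to -0.96. This call was lost in 8 of 20 alternatives. ADCY9, an adenylyl cyclase, measured 11.3, 16.2 and 16.1 CPM in DMSO, 14.6, 11.7 and 11.4 under abemaciclib, 12.1, 14.4 and 9.34 under fulvestrant and 7.22, 7.86 and 7.96 under the combination. Its combination libraries were the 3 lowest of the 12, with -0.71 ± 0.21 (SE; adjusted p 0.0102) against abemaciclib and -0.94 ± 0.21 (SE; adjusted p 0.000397) against DMSO. Without abemaciclib replicate 1 the first of these was -0.58 (adjusted p 0.0732). GAB2, a docking protein of receptor signalling, was lower in the combination than under abemaciclib by -1.68 ± 0.37 (SE; adjusted p 0.000717).

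Grouped by role, 9 of the 16 receptors, ligand subunits and signalling proteins rose under abemaciclib and 3 fell, and 5 rose and 5 fell under fulvestrant. Of 10 genes of the cytoskeleton and vesicle traffic 8 rose and 0 fell under abemaciclib, and 3 rose and 2 fell under fulvestrant. Among 9 transcriptional regulators and proteins of protein turnover, abemaciclib raised 4 (KLF4, KDM4B, SIAH2 and BHLHE40) and lowered 0, and fulvestrant raised 3 and lowered 4. The 11 tested enzymes of metabolism and secretion had 7 rises and 3 falls under abemaciclib and 4 rises and 3 falls under fulvestrant. Channels, transporters and membrane proteins numbered 8, with 5 rises and 1 fall under abemaciclib and 2 rises and 3 falls under fulvestrant. The 3 chaperones and co-chaperones had 0 rises and 2 falls under each drug. Over all genes tested 20.5% rose and 20.7% fell under abemaciclib, and 25.3% rose and 25.7% fell under fulvestrant, so that counts such as 5 of 16 in each direction, 3 of 10 or 2 of 8 under fulvestrant lie near the share of all genes. No role was tested as a group.

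The change brought by abemaciclib was then compared without and with fulvestrant. The 33 genes that rose under abemaciclib had a median log2 fold change of 0.72 without fulvestrant, which follows from how they were chosen, and of -0.01 when the combination was set against fulvestrant, which shares no library with that choice. Over all 57 genes the interaction was below 0 in 22 and above 0 in 4 past the threshold, where 11.6% and 9.49% of all genes were, with a median of -0.52. No matching values were taken over all genes that rose under abemaciclib, so the 33 genes are not set apart from those. Among the 33 genes the interaction was below 0 in 22 and above 0 in 0, a count using the same abemaciclib and DMSO values. The largest were -1.89 ± 0.19 (SE; adjusted p 6.43e-08) for ABAT, -1.68 for SLC26A2 and -1.62 ± 0.22 (SE; adjusted p 6.16e-06) for PODXL, followed by -1.22 ± 0.36 (SE; adjusted p 0.0155) for SVIL, -1.13 ± 0.19 (SE; adjusted p 0.000106) for PEX11A and -1.09 ± 0.10 (SE; adjusted p 2.23e-08) for INHBB. The SVIL value was lost without DMSO replicate 2 (-1.02) or fulvestrant replicate 1 (-1.07). These 6 genes did not share a level in the combination. ABAT and PODXL were not called against DMSO, at -0.13 and 0.15, SLC26A2 lay above DMSO by 0.58 ± 0.11 (SE; adjusted p 5.13e-05), and INHBB, PEX11A and SVIL lay above DMSO by 1.39, 1.15 and 0.81. That call for SVIL was lost without DMSO replicate 2 (0.60) or combination replicate 2 (0.71).

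The 4 interactions above 0 were BLVRB, FKBP5, FKBP4 and GFRA1. They were 0.59 ± 0.14 (SE; adjusted p 0.00269) for BLVRB, 0.53 ± 0.14 (SE; adjusted p 0.0062) for FKBP5 and 0.37 ± 0.12 (SE; adjusted p 0.0248) for FKBP4, all of which were lower under abemaciclib than in DMSO. The FKBP4 value was lost in 6 of 19 alternatives, over which it ran from 0.32 to 0.36: no filter on low counts, and without DMSO replicate 1, abemaciclib replicate 2, fulvestrant replicate 2 or combination replicate 1 or 2. For GFRA1 the fulvestrant libraries were at 0 reads, so only its adjusted p of 0.0355 is given.

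**Figure D4:**
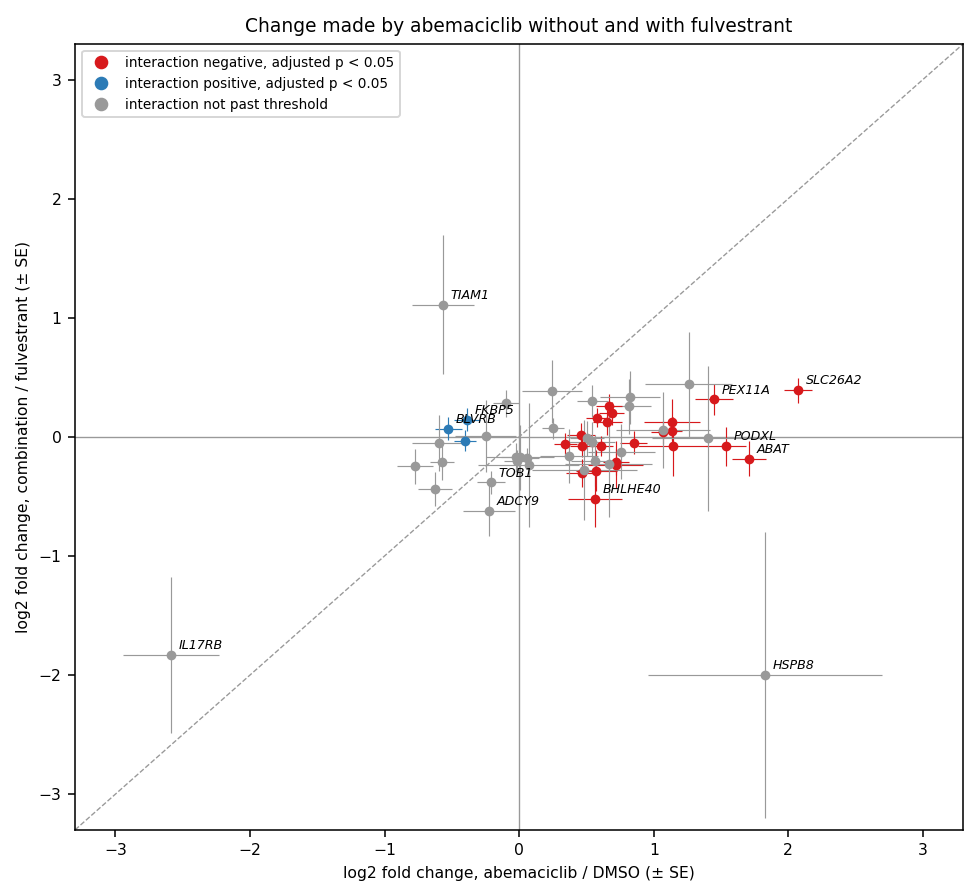
Log2 fold change of abemaciclib against DMSO (horizontal axis) and of the combination against fulvestrant (vertical axis) for 56 genes, with bars of 1 SE and a dashed line of equal change; GFRA1 is left out because its fulvestrant libraries held 0 reads. Points with an interaction called below 0 lie right of 0 and below the dashed line, and nearly all genes lie near 0 on the vertical axis. HSPB8 lies lowest, with an SE of 1.20 on that axis.

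Abemaciclib against DMSO and the combination against fulvestrant share no library. Over the 56 genes with reads in every group, which leaves out GFRA1, their log2 fold changes had a Pearson's r of 0.2311 and a Spearman's rank correlation of 0.2553, and 27 of 56 had the same sign (48.2%). Over all 11773 genes with reads in every group these were 0.3584, 0.2068 and 56.7%. With GFRA1 included Pearson's r over the 57 genes was 0.0036, so that value rests on a fitted fold against 0 reads. Fulvestrant against DMSO and the combination against abemaciclib share no library either. For that pair Pearson's r was 0.676 and Spearman's rank correlation 0.6928 over the 56 genes, and 36 of 56 had the same sign (64.3%), against 0.6823, 0.5784 and 70.7% over all genes with reads in every group. These are descriptions across genes, which are not independent of each other. Per library, the mean log2 CPM of the 56 genes relative to DMSO was 0.37, 0.44 and 0.47 under abemaciclib, -0.26, -0.18 and -0.27 under fulvestrant and -0.31, -0.23 and -0.34 under the combination.

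Compared directly, abemaciclib was above fulvestrant in 29 of the 57 genes and below it in 5, where 15.5% and 13.4% of all genes were, with a median log2 difference of 0.55. The 6 genes that rose under abemaciclib and fell under fulvestrant were all above, by 0.50 for UGCG to 1.99 for MAST4, and so were 12 of the 14 that rose under abemaciclib with no call under fulvestrant. The 2 exceptions were ANXA9, at 0.24 ± 0.11 (SE; adjusted p 0.112), and DEPTOR, at 0.45 ± 0.22 (SE; adjusted p 0.126). The classes were chosen with these same abemaciclib and fulvestrant libraries. That choice fixed the direction for the 6 genes and favoured it for the 14. Of the 13 genes that rose under both, PEX11A and CELSR2 were higher under abemaciclib and INHBB was lower, at -0.21 ± 0.07 (SE; adjusted p 0.0291). The INHBB call was lost in 5 of 20 alternatives, among them no filter on low counts and the removal of abemaciclib replicate 2 (-0.21) or 3 (-0.19) or fulvestrant replicate 1 (-0.17). TOB1, MLPH, ITPK1 and BLVRB were the other genes below fulvestrant. For ITPK1, at -0.27 ± 0.09 (SE; adjusted p 0.0338), the call was lost in 6 of 20 alternatives, without abemaciclib replicate 2 (-0.22) or 3 (-0.23) or fulvestrant replicate 2 (-0.22) among them.

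For the classical markers, a list of 23 receptor targets gives the values beside these. Under abemaciclib 18 of the 23 rose and 0 fell, with a median log2 fold change of 0.65, against 33 and 9 of the 57. Over all genes tested 20.5% rose and 20.7% fell. Under fulvestrant 4 of the 23 rose and 14 fell, against 17 and 19 of the 57 and 25.3% and 25.7% of all genes. Adding fulvestrant to abemaciclib lowered 21 of the 23 and raised 0, against 34 and 6 of the 57 and 17.7% and 15.9% of all genes. The share that rose under fulvestrant was 17.4% of the classical list and 29.8% of the 57 genes, beside 25.3% of all genes tested. A list of 14 genes of the receptor machinery holds the receptor, its pioneer factors and its coregulators, and also RB1 and KDM5A. It had 0 rises and 2 falls (14.3%) under abemaciclib, against 20.5% and 20.7% of all genes. Under fulvestrant it had 8 rises (57.1%) and 1 fall (7.14%), against 25.3% and 25.7% of all genes. The difference between the lists was not tested.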

How the data were processed

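RNA of 12 cultures of CAMA-1 cells was sequenced from the 3′ ends of transcripts, and the label of each sample gave its treatment group. The deposited values are raw read counts per gene symbol. To make them, the authors trimmed reads with BBDuk, aligned them to hg38 with STAR and counted them with featureCounts (version 2.0.1 in the submitters' processing notes) on a GENCODE annotation. Whether counting used the strand is not given in the sources used here, nor are molecular identifiers, so floors and counting intervals cover counting error only.

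The analysis used R 4.3.3, edgeR 4.0.16 and limma 3.58.1. The 44 rows with no gene name held 0 reads and were left out. Genes that passed a filter by group (minimum count 10, minimum total 15) numbered 11803, library sizes were scaled with TMM factors, and 1 quasi-likelihood model with 4 group means was fitted to all 12 libraries (common biological coefficient of variation 0.0918). Benjamini-Hochberg adjustment ran over the 11803 genes, with a threshold of 0.05. Each SE was derived from the test, as the size of the log2 fold change over the square root of its F statistic. The 95% intervals of log2 changes were built from these SEs. The study used DESeq2, which was run as an alternative (1.42.0). Total counts of 3299119 to 5164667 per library make 3 counts worth 0.57 to 0.89 CPM.

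The genes and lists were chosen with earlier results of these data known, and no p is given over a list. Within each class of joint response, values in every library are given for up to 4 leading genes that reached 10 CPM in their highest group, for the 6 largest called interactions and for any gene called between the combination and fulvestrant. The scripts were tested on simulated data. Alternatives were other scaling factors, other filters, DESeq2, a minimum change, only the groups compared, the replicate number as a block, and each library left out. Calls lost per gene are counted over these without the minimum change. Strand overlaps were read from GENCODE on GRCh38.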

Additional observations from a re-analysis of the deposited data

Results flagged for a closer look

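For 26 of the genes, the change made by abemaciclib differed between cells without and with fulvestrant by the test of the interaction, which is the log2 change with fulvestrant minus that without it. It was below 0 for ABAT (-1.89), SLC26A2 (-1.68), PODXL (-1.62), SVIL (-1.22), PEX11A (-1.13), INHBB (-1.09), BHLHE40 (-1.08), CELSR2 (-1.03) and OPN3 (-1.01). It was also below 0 for SYBU (-0.95), CELSR1 (-0.93), WFS1 (-0.90), MREG (-0.86), ANXA9 (-0.77), CANT1 (-0.69), RHOBTB3 (-0.54) and MYOF (-0.54). Smaller values below 0 were those of WWC1 (-0.49), ABCA3 (-0.44), KDM4B (-0.42), MAPT (-0.41) and ELOVL5 (-0.40). It was above 0 for FKBP4 (0.37), FKBP5 (0.53) and BLVRB (0.59), and for GFRA1, whose fulvestrant libraries held 0 reads, the adjusted p was 0.0355.

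For MAPT the call was lost in 11 of 19 alternatives, and without fulvestrant replicate 3 the value was -0.24. The calls for ABCA3 and ELOVL5 were lost in 5 and 4 alternatives, with values of -0.42 to -0.33 and -0.38 to -0.29. Leaving out DMSO replicate 2 ended the calls for OPN3 (-0.88) and SYBU (-0.79), and leaving out fulvestrant replicate 2 ended that for BHLHE40 (-0.89). Scaling by total counts alone ended those for KDM4B (-0.31) and WWC1 (-0.38).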

How the results depend on the processing

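No called value of the 57 genes changed sign under any alternative, GFRA1 left out where a fulvestrant group enters. Leaving aside the minimum change, calls held in each of the 20 other alternatives (19 for the interaction) for 32 of 42 genes under abemaciclib, 25 of 35 under fulvestrant, 32 of 40 between the combination and abemaciclib, 0 of 1 between the combination and fulvestrant, 30 of 43 between the combination and DMSO, 31 of 33 between abemaciclib and fulvestrant and 15 of 25 for the interaction. The cause of the lost calls was not tested. Depth limits the genes with few reads, such as PRSS23, KLF4 and GFRA1.

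Requiring at least a 2-fold change besides the adjusted p left 11 genes higher and 1 lower under abemaciclib and 3 and 9 under fulvestrant. It left 0 and 21 between the combination and abemaciclib and 0 lower between the combination and fulvestrant. Between the combination and DMSO it left 5 and 11, between abemaciclib and fulvestrant 16 and 0, and for the interaction 1 and 9. This is a cutoff on the fitted value and no test of size. The share of all genes past the same cutoff was not taken, so these counts cannot be set against one. The 1 interaction above 0 was that of GFRA1, whose fitted value rests on 0 reads under fulvestrant. Scaling by total counts alone moved the medians to 0.48 under abemaciclib, -0.25 under fulvestrant and -0.40 for the interaction, gave 7 interactions above 0, and gave 1 gene higher and 0 lower between the combination and fulvestrant. Fitting only the groups compared moved the fulvestrant median to -0.12, and gave 0 genes lower between the combination and fulvestrant and 3 lower between abemaciclib and fulvestrant. With no filter on low counts 1 gene was higher between the combination and fulvestrant and 3 were lower between abemaciclib and fulvestrant.

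Leaving out 1 library at a time gave 29 to 34 genes higher and 7 to 9 lower under abemaciclib (median 0.49 to 0.55), 14 to 18 and 15 to 20 under fulvestrant (-0.22 to -0.12), and 4 to 6 and 30 to 35 between the combination and abemaciclib (-0.62 to -0.58). It gave 0 to 2 and 0 to 1 between the combination and fulvestrant (-0.09 to -0.01), 15 to 20 and 20 to 24 between the combination and DMSO (-0.24 to -0.16), 29 to 31 and 3 to 6 between abemaciclib and fulvestrant (0.51 to 0.65), and 2 to 5 and 17 to 25 for the interaction (-0.55 to -0.49).

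Replicate numbers did not pair the libraries: the correlation of deviations from the group means ran from -0.2146 to 0.1192 for same-numbered libraries, and was over 0.1 in 2 of 18 pairs. With the replicate number as a block, 33 genes were higher and 8 lower under abemaciclib, and 0 were lower between the combination and fulvestrant.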
